A study of Mus musculus with 6 samples.

Results

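The small nucleolar RNAs (snoRNAs) and small Cajal body RNAs (scaRNAs) compared here are the genes whose symbols begin with Snord, Snora or Scarna followed by a digit. The rule found 45 of the 19571 genes of the table, of which 26 are C/D box RNAs (Snord), 14 are H/ACA box RNAs (Snora) and 5 are Cajal body RNAs (Scarna). The annotation used here lists 147 such symbols, so 30.6% of them have a row. Those with a row are 26 of 98 Snord, 14 of 40 Snora and 5 of 9 Scarna symbols, and the other 102 were not analysed here. The lowest mean in the whole table is 4.79 normalized counts, so the RNAs described are those with enough reads to be listed.

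The study sequenced total RNA from mouse E14 embryonic stem cells, a line derived from the inner cell mass, grown on gelatin in serum with leukaemia inhibitory factor (LIF). There are 3 wild type (WT) samples and 3 samples of genotype Dot1L-/- made with CRISPR/Cas9, all carrying the age label day 14. Dot1l encodes the enzyme that methylates a lysine in the core of histone H3. The sources used here do not give the number of knock-out lines or clones, nor whether samples of a group came from different cultures, so the spread behind each p-value may be technical. The files hold the authors' own comparison with no value per sample, and the depth of each library is unknown. How far the libraries kept RNAs as short as most of those described here was not tested. The counts therefore describe reads and not amounts of the mature RNAs.

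C/D box RNAs carry the short boxes C and D, bind fibrillarin, and guide ribose methylation, mostly of ribosomal RNA. H/ACA box RNAs fold into hairpins joined by box H and closed by an ACA, bind dyskerin, and guide the conversion of uridine to pseudouridine. Small Cajal body RNAs carry boxes of either or both kinds and guide the same changes on spliceosomal RNAs. In mammals nearly all of them are cut out of introns, often of genes that encode ribosomal proteins or other parts of the translation machinery, and only some have promoters of their own.

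The RNAs on which the description turns are shown with their GRCm38 positions and GENCODE sequences, 5′ to 3′. The first group holds C/D box RNAs, with box C (NTGATGA, starting in the first 20 bases) and box D (CTGA, in the last 15 bases) in capitals where these letters are present. Snord35a, Snord34 and Snord32a are shown because they share the introns of 1 host gene, Rpl13a, and Snord49a and Snord65 because they share another host but stood on either side of 0, with 95% intervals that overlap. Snord17 and Snord59a had the largest positive fold changes among C/D box RNAs.
Snord35a, chr7:45126346-45126435, minus strand: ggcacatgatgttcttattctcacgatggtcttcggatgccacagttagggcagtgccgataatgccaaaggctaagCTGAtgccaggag
Snord34, chr7:45126601-45126670, minus strand: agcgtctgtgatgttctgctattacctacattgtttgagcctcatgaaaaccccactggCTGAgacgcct
Snord32a, chr7:45127382-45127464, minus strand: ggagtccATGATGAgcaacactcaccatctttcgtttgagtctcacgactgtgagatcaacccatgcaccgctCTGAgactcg
Snord49a, chr11:62603450-62603521, plus strand: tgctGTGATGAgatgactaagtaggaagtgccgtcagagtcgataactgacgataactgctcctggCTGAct
Snord65, chr11:62604515-62604586, plus strand: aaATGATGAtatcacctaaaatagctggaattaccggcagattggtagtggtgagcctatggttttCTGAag
Snord17, chr2:144265979-144266216, minus strand: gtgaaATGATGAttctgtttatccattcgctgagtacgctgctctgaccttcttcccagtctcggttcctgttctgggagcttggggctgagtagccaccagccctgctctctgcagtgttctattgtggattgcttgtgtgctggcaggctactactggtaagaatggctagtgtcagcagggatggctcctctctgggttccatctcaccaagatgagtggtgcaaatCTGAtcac
Snord59a, chr10:128084143-128084216, plus strand: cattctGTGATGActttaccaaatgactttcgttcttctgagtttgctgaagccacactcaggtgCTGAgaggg

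The second group holds the H/ACA box RNA with the highest mean count, Snora43, and the pair with the lowest fold changes, Snora57 and Snora69. The ACA that ends 3 bases before the 3′ end is in capitals. Scarna9, which had the smallest p-value of all members, is shown without capitals, although it holds the letters of box C and box D.
Snora43, chr2:26637847-26637985, minus strand: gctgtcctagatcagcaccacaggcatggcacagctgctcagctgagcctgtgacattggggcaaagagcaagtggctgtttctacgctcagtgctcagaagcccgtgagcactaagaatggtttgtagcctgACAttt
Snora57, chr19:8888538-8888685, minus strand: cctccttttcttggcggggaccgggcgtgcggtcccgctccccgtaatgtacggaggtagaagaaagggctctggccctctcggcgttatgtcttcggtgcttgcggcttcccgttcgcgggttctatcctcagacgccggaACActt
Snora69, chrX:37082912-37083042, minus strand: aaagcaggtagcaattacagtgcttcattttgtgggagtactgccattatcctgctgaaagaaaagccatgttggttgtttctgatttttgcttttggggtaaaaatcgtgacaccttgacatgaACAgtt
Scarna9, chr9:15326264-15326333, minus strand: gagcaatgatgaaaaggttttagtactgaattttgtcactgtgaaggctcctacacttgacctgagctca

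Most members hold the letters of the class that their symbol gives. On the transcribed strand, box C was found in 16 of 26 C/D box members, box D in 22 and both boxes in 15, whereas 0 of 14 H/ACA box members held box C and 2, Snora17 and Snora43, held box D. Among 32851 RefSeq promoter windows of the same 82-base length, read on the gene's strand, 0.487% held box C, 6.03% box D and 0.0244% both. The ACA stood exactly 3 bases from the end in 12 of 14 H/ACA box members and in 0 of 26 C/D box members, against 1.59% of promoter windows of 134 bases. Box H, searched as ANANNA in the middle of the sequence, was in 13 of 14 H/ACA box and 5 of 26 C/D box members, but this loose motif also lay in 44.8% of those windows. Where a box was not found, as box C in Snord35a and Snord34, only those exact letters are missing from the window. C/D box members were 64 to 238 bases long with a median of 82, and H/ACA box members 128 to 184. Scarna members spanned 70 bases for Scarna9 to 414 bases for Scarna2.

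No member passed the test between the genotypes. At an adjusted p under 0.05 (the authors' DESeq2 Wald test with Benjamini-Hochberg adjustment over all genes), 0 of 45 members were called, in a table where 6.58% of the genes were called, 5.34% higher and 1.25% lower. Without adjustment, 0 of 45 members had p under 0.05, against 16.2% of all genes. Of the genes whose mean lies in the members' range, from 5.11 to 173 normalized counts, 9.99% were called and 20.9% had an unadjusted p under 0.05. The smallest p among the members was 0.0641, for Scarna9. The sign of the fold change has no stated direction in the files. A positive value is read here as more RNA in Dot1l KO, since the retrovirus MERVL is described in the literature as repressed by Dot1l. With the opposite sign every direction given here would reverse.

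The labels can be checked only in part, and the directions of markers rest on the sign chosen above, so they cannot check it. Dot1l stood at -0.16 ± 0.25 (standard error, SE, on the log2 scale) with adjusted p = 0.845 by the authors' deposited table, and the edited stretch of the gene is not known from the labels, so this value does not check the genotype. All 6 pluripotency markers listed, Pou5f1 and Sox2 among them, had means of 5956 or more, and 0 of 6 were called, against 6.58% of all genes. Over all genes, 5.34% were called higher. Some markers of other states were called higher, 4 of 5 for the 2-cell-like state, 3 of 4 for primitive endoderm and 3 of 5 for fibroblasts. The other 2 fibroblast markers had negative fold changes, so that list did not move as 1. The part of these states in the values of the small RNAs was not tested. In bulk RNA, fewer cells of a type and less RNA per cell cannot be told apart.

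The absence of calls has to be read with the precision of short, weakly counted RNAs. The members' mean ran from 5.11 to 173 normalized counts with a median of 16.8, and only 10 of 45 reached 50. A gene was called at an absolute Wald statistic (fold change over its SE) of 2.94 or more, so a member needed a log2 fold change of 1.05 (Snora43) to 5.77 (Scarna2) to pass, with a median of 2.41. The 95% interval lay wholly between -1 and 1 on the log2 scale for 3 members, Snora43, Snord49a and Snord49b, and between -2 and 2 for 21. For 25 members it took in both -1 and 1, so that neither direction of a change of that size is left out by the data. An observed log2 fold change of 1 would not have been called in any of the 45 members, since the smallest needed was 1.05. This bound holds for the estimate and not for the true change.

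**Figure D1:**
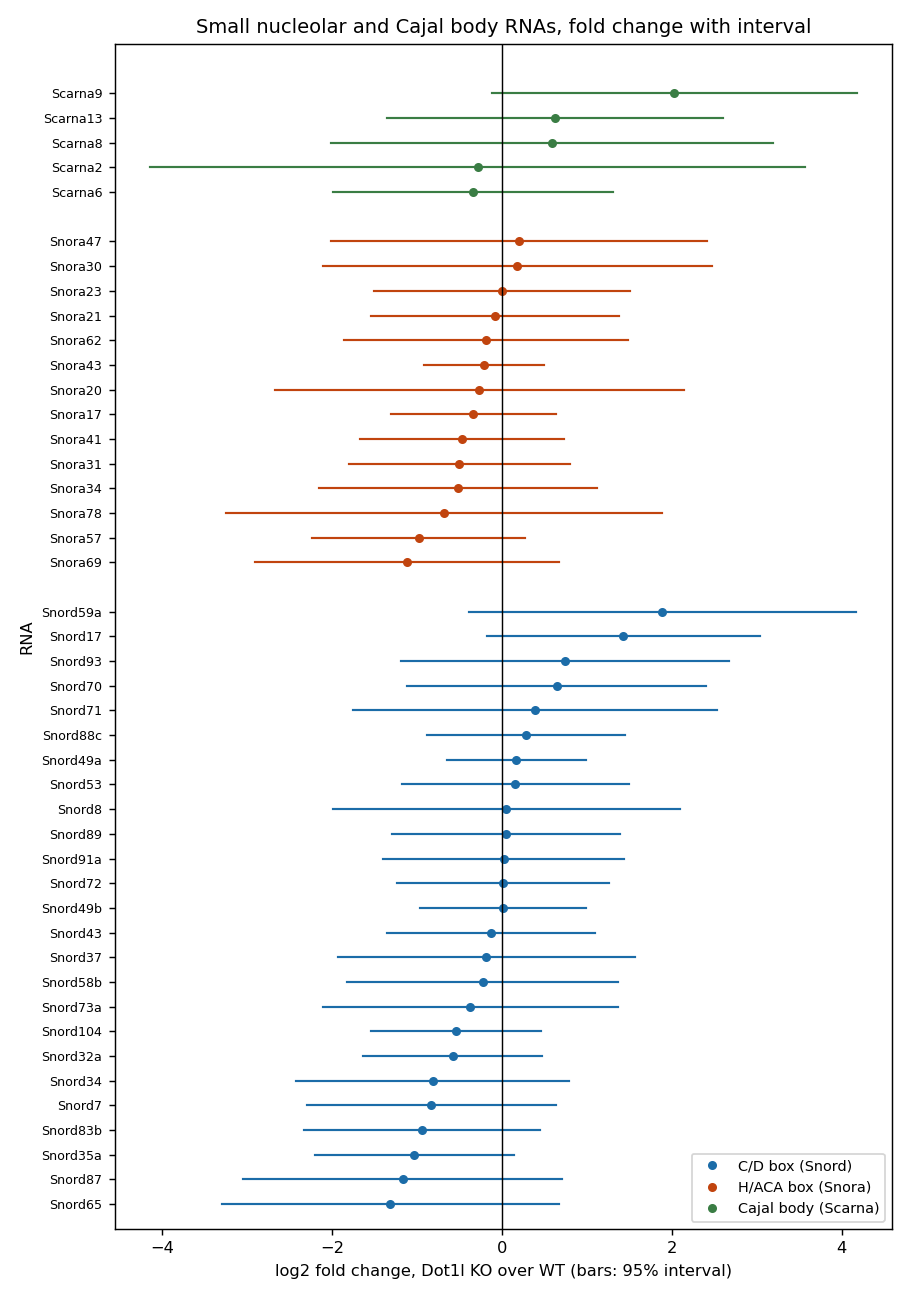
Log2 fold change of Dot1l KO over WT (horizontal axis) for all but 1 of the 45 RNAs (vertical axis), grouped as C/D box, H/ACA box and Cajal body RNAs and ordered by value; points are the deposited fold changes and bars their 95% intervals. Every interval shown crosses 0, the narrowest being that of Snora43 (-0.92 to 0.49) and the widest that of Scarna2 (-4.14 to 3.56).

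Among the 26 C/D box RNAs, 13 fold changes were positive and 13 negative, with a median of -0.05 and quartiles of -0.57 and 0.17 on the log2 scale. Over all genes the median was -0.02 and 51.4% were negative. The 5 C/D box RNAs with a mean of at least 50 had a median of -0.54, 4 of them negative, and the 21 below that level had a median of 0.01. These are counts and medians only, and no member passed the test between genotypes.

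Per 100 bases of annotated length, Snord104, for which no host gene overlaps in the annotation used, stood at 188 normalized counts and Snord49a at 111. Values per 100 bases are read counts over annotated length, and whether they follow the amounts of the RNAs was not tested. Snord104 had a mean of 131, and with groups of equal size that mean and its fold change imply 107 normalized counts in Dot1l KO and 156 in WT. Snord104 had -0.54 ± 0.51 (adjusted p = 0.694) and Snord49a 0.17 ± 0.42 (adjusted p = 0.911) by the authors' deposited table. The SE of Snord49a was 0.876 times the median SE of genes at its level.

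The lowest p-values among C/D box RNAs belonged to Snord17 on the positive side and Snord35a on the negative side. Snord17, a long C/D box RNA from an intron of the sorting nexin gene Snx5, had 1.43 ± 0.82 with adjusted p = 0.398 by the authors' deposited table. Its mean of 19.4 implies 28.3 normalized counts in Dot1l KO and 10.5 in WT. Its host Snx5 stood at -0.00 ± 0.27 (adjusted p = 0.999) by the authors' deposited table. Snord59a, from an intron of the ATP synthase gene Atp5b, had 1.89 ± 1.16 with adjusted p = 0.450 by the authors' deposited table, at a mean of only 7.53. Atp5b itself had -0.18 ± 0.25 (adjusted p = 0.809) by the authors' deposited table. Both intervals include 0.

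Snord35a, from the ribosomal protein gene Rpl13a, had -1.03 ± 0.60 with adjusted p = 0.407 by the authors' deposited table, and its mean of 72.0 implies 47.3 normalized counts in Dot1l KO and 96.6 in WT. The other members from Rpl13a were Snord34 at -0.81 ± 0.82 (adjusted p = 0.718) and Snord32a at -0.58 ± 0.54 (adjusted p = 0.686) by the authors' deposited table. These RNAs guide methylation of ribosomal RNA and are also known from work on metabolic stress. All of them thus lay on the negative side with Rpl13a itself (chromosome 7, 45125558 to 45128761), which had -0.81 ± 0.47 and adjusted p = 0.398 by the authors' deposited table, and the 95% interval of each includes 0. Per 100 bases they stood at 80.0, 27.1 and 47.7 normalized counts for Snord35a, Snord34 and Snord32a. Rpl13a overlaps the predicted gene Gm45713 on the same strand, and the sources used here do not give how reads that fall in both were counted.

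The non-coding host 2410006H16Rik on chromosome 11 holds 3 members, whose 95% intervals overlap. Snord49a and Snord49b, which both hold box C and box D, were at 0.17 ± 0.42 and 0.01 ± 0.50 (adjusted p = 0.911 and 0.996), and Snord65 was at -1.31 ± 1.01 (adjusted p = 0.595), by the authors' deposited table. The host stood at -0.72 ± 0.33 with adjusted p = 0.215 by the authors' deposited table. Per 100 bases, Snord49a had 111, Snord49b 55.2 and Snord65 14.3 normalized counts. From Rpl3, which encodes a ribosomal protein, Snord83b had -0.94 ± 0.71 and Snord43 -0.13 ± 0.62 by the authors' deposited table, with adjusted p = 0.579 and 0.957. Rpl3 stood at -0.42 ± 0.31 (adjusted p = 0.565) by the authors' deposited table. The annotation types Snord43 as a miRNA gene, and neither box was found at the ends of its annotated span.

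Other C/D box RNAs on the negative side were Snord87 in Snhg6 at -1.17 ± 0.96 and Snord7, a guide for a spliceosomal RNA, at -0.83 ± 0.75, by the authors' deposited table (adjusted p = 0.626 and 0.671). Members near 0 included Snord72 in Rpl37 at 0.01 ± 0.64, Snord91a in Tsr1 at 0.02 ± 0.72 and Snord89 at 0.05 ± 0.68, by the authors' deposited table. Snord70, from the gene of the C/D box core protein Nop58, had 0.64 ± 0.90 and Snord93 0.74 ± 0.99 by the authors' deposited table (adjusted p = 0.815 and 0.804). The C/D box members Snord73a, Snord58b, Snord37, Snord8, Snord53, Snord88c and Snord71, lay between -0.37 and 0.39.

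Among the 14 H/ACA box RNAs, 11 fold changes were negative and 3 positive, with a median of -0.30 and quartiles of -0.51 and -0.11. The test called 0 of these 14, against 6.58% of all genes. The values ran from -1.12 to 0.20, so the positive ones were small. Of the 5 H/ACA box RNAs with a mean of at least 50, all had negative fold changes, with a median of -0.47, which is close to the -0.54 of the C/D box RNAs at that level. Below a mean of 50 the median was -0.19 for 9 H/ACA box RNAs and 0.01 for 21 C/D box RNAs. Whether the classes differ was not tested, because genes are not replicates and several share a host.

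Snora43, the H/ACA box RNA with the highest level and the smallest error of any member, had -0.21 ± 0.36 with adjusted p = 0.858 by the authors' deposited table. Its mean of 170 implies 158 normalized counts in Dot1l KO and 183 in WT, and it stood at 122 per 100 bases. The symbol belongs to 2 overlapping annotated loci with different ends, and only the longer is shown. Snora17, which lies close by on the same strand, had -0.34 ± 0.49 (adjusted p = 0.829) by the authors' deposited table.

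The lowest fold changes among H/ACA box RNAs were those of Snora69 and Snora57. Snora69, from the X-linked ribosomal protein gene Rpl39, had -1.12 ± 0.91 (adjusted p = 0.624) by the authors' deposited table, with 14.8 normalized counts implied in Dot1l KO and 32.2 in WT. Snora57 had -0.98 ± 0.64 (adjusted p = 0.490) by the authors' deposited table, with 42.3 implied in Dot1l KO and 83.4 in WT. It has no same-strand host in the annotation used and lies within Lbhd1 on the opposite strand, so without knowledge of the strand setting reads of both genes cannot be told apart.

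Snora31, from the translation-associated gene Tpt1, had -0.50 ± 0.66 and Snora41, from the elongation factor gene Eef1b2, -0.47 ± 0.61 by the authors' deposited table, with adjusted p = 0.804 and 0.798. Their hosts lay on the same side, Tpt1 at -0.43 ± 0.33 and Eef1b2 at -0.84 ± 0.38, with adjusted p = 0.590 and 0.219 by the authors' deposited table. Snora34, at -0.52 ± 0.83 by the authors' deposited table, overlaps the miRNA gene Mir1291, and Snora78, at -0.68 ± 1.31, lies opposite to the ribosomal protein gene Rps2. The remaining H/ACA box RNAs, Snora20, Snora62, Snora21, Snora23, Snora30 and Snora47, lay between -0.27 and 0.20, with means from 5.26 to 16.2.

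The 5 Cajal body RNAs were the most weakly counted class, with means from 5.11 to 12.8 and a median of 3.90 normalized counts per 100 bases, against 21.7 for C/D box and 10.4 for H/ACA box RNAs. This order is one of read counts, and whether the classes differ in amount of RNA was not tested. Scarna9, which guides changes of the U2 spliceosomal RNA, had 2.03 ± 1.10 with adjusted p = 0.353 by the authors' deposited table, and its mean of 6.86 implies 11.0 normalized counts in Dot1l KO and 2.70 in WT. The annotation ends Scarna9 after 70 bases, and whether it and the snoRNA gene next to it, Gm24339, are pieces of 1 longer RNA was not tested. Its host Cep295, a centrosomal protein gene, was at 0.02 ± 0.36 (adjusted p = 0.992) by the authors' deposited table. Scarna13, from Snhg10, had 0.62 ± 1.01 and Scarna8, from Haus6, 0.59 ± 1.33, with adjusted p = 0.851 and 0.900 by the authors' deposited table.

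Their hosts Snhg10 and Haus6 were at -0.36 ± 0.48 and -0.01 ± 0.32 by the authors' deposited table (adjusted p = 0.805 and 0.993). Scarna13 overlaps the miRNA gene Mir3069.

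On the negative side, Scarna6, from the autophagy gene Atg16l1, had -0.34 ± 0.84 with adjusted p = 0.914 by the authors' deposited table. Scarna2, which is transcribed from its own promoter and has no host gene, had -0.29 ± 1.96 with adjusted p = 0.972 by the authors' deposited table. Its SE was 1.74 times the median SE of genes at its level, the highest ratio of any member. Over all members, 24 of 45 had an SE above the median at their level. Most members with a mean of at least 50 did, up to 1.48 times that median for Snord83b. The exceptions there were Snora43 at 0.838 and Snord49a at 0.876 times.

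**Figure D2:**
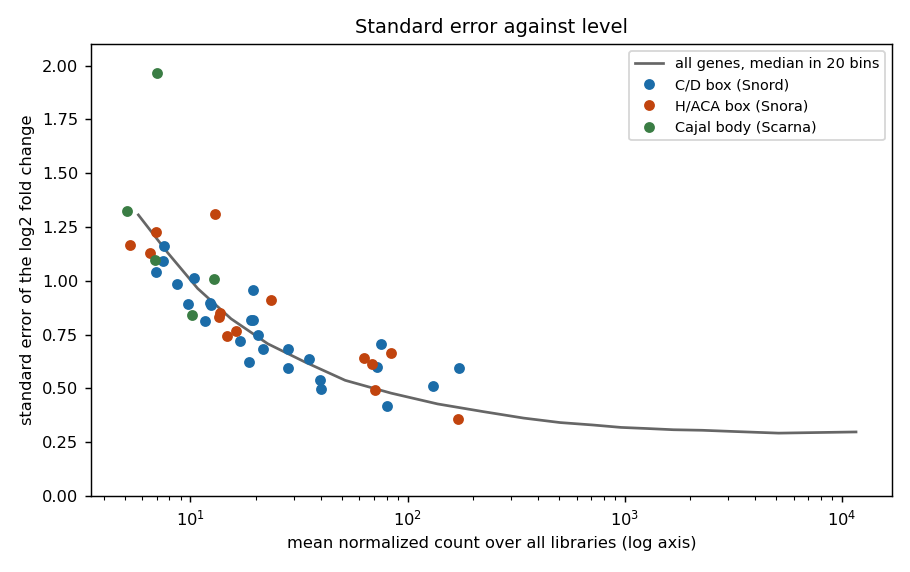
Standard error of the log2 fold change (vertical axis) against mean normalized count over all libraries (horizontal log axis) for the 45 RNAs, with the median of all genes in 20 bins of mean count as a line. The members fall with the line, from above 1 at the lowest means to 0.36 for Snora43, and Scarna2 stands apart at 1.96. Most members with a mean of at least 50 lie above the line.

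Level matters for the reading of direction, because weakly counted genes of the table lean to positive fold changes. Genes in the members' range of mean count had a median log2 fold change of 0.37, and 34.3% of them were negative. The members had a median of -0.18, and 26 of 45, or 57.8%, were negative. At a mean of at least 50, where members reach 173, 9 of 10 members were negative with a median of -0.49, beside a median of 0.23 for the bin medians at their levels. Of all genes with a mean of at least 50, 60.5% were negative, with a median of -0.11. After centring each fold change on the median of its bin of mean count, 39 of 45 members were negative. These were 22 of 26 C/D box, 14 of 14 H/ACA box and 3 of 5 Scarna members. After this centring still 0 members passed, beside 911 of all 19571 genes. The closest analogues, 75 further genes typed as snoRNA or scaRNA under other symbols, had a median of 0.08 with 34 negative before centring and of -0.38 with 54 negative after it. Of these 75, 0 were called, and 2 of them had an unadjusted p under 0.05, beside 6.58% and 16.2% of all genes.

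**Figure D3:**
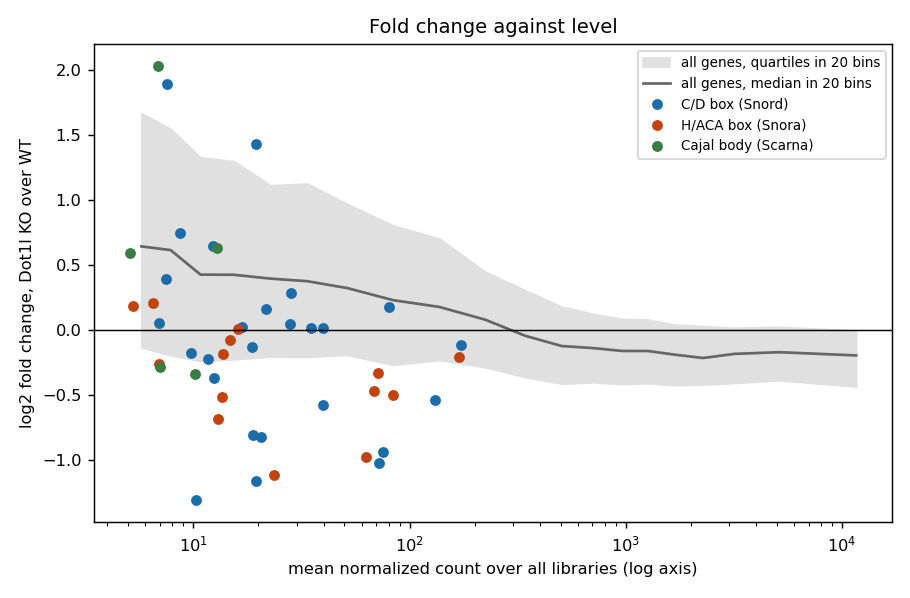
Log2 fold change of Dot1l KO over WT (vertical axis) against mean normalized count (horizontal log axis) for the 45 RNAs, with the median (line) and quartiles (band) of all genes in 20 bins of mean count. Most members, 39 of 45, lie under the line of their bin, and those above it are weakly counted, such as Scarna9 at 2.03 and Snord59a at 1.89.

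Of the 45 members, 40 lie inside an annotated gene on their own strand, outside its exons, and 39 of these have a host with a row of its own. By the lists of symbols used, the 34 hosts include 9 ribosomal protein genes, 3 translation factor genes, and 2 genes of ribosome assembly, Nop58 and Wdr43. Genes outside these lists, such as Tsr1, the host of Snord91a, were counted with the other hosts whatever their function. None of the hosts was called, against 6.58% of all genes, and 3 had an unadjusted p under 0.05, against 16.2% of all genes. Of the 34 hosts, 28 had negative fold changes, and 22 after centring in bins of mean count. Their median was -0.36, where genes at the hosts' levels had a median of -0.20.

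The members are described next by the kind of host, and no host and no member passed the test. All 9 ribosomal protein hosts had negative fold changes, from -0.81 for Rpl13a to -0.38 for Rps3a1, and 11 of their 12 members were negative, with a median of -0.30. The 3 members of translation factor genes were negative too, with a median of -0.47, while the members of Nop58 and Wdr43 were positive. Taking these classes as the translation group, 14 of 17 members were negative, with medians of -0.21 for 12 C/D box and -0.47 for 5 H/ACA box RNAs. The 22 members of other hosts had 6 negative values, with medians of 0.05 for 13 C/D box and 0.00 for 5 H/ACA box RNAs. These counts and medians do not allow for level. After centring in bins of mean count, most members of both groups were negative. Members that turned include Snord49a, Snord49b and Scarna8 of other hosts, and Snord72 and Snord53 of the translation group. Whether these groups of members differ was not tested.

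Across the 39 members with a host in the table, Pearson's r between the log2 fold changes of member and host was 0.56 and Spearman's rho 0.64, as a description only. The points share libraries and size factors, and 8 of the members share 3 hosts. Whether reads over a member came from the small RNA or from unspliced host RNA was not tested. By class, r was 0.60 for 25 C/D box and 0.44 for 10 H/ACA box RNAs, and it was -0.10 for the 6 members with a mean of at least 50. Hosts lay only between -0.84 and 0.20, and the 95% interval of every member includes 0. The count of hosts inside these wide intervals therefore cannot show whether members followed their hosts. The host's fold change lay inside the member's 95% interval in 38 of 39 cases. The exception was Snord49a, whose interval of -0.65 to 0.99 leaves out the -0.72 of its host, and the difference of 0.89 had an SE of 0.53 if the values were independent.

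**Figure D4:**
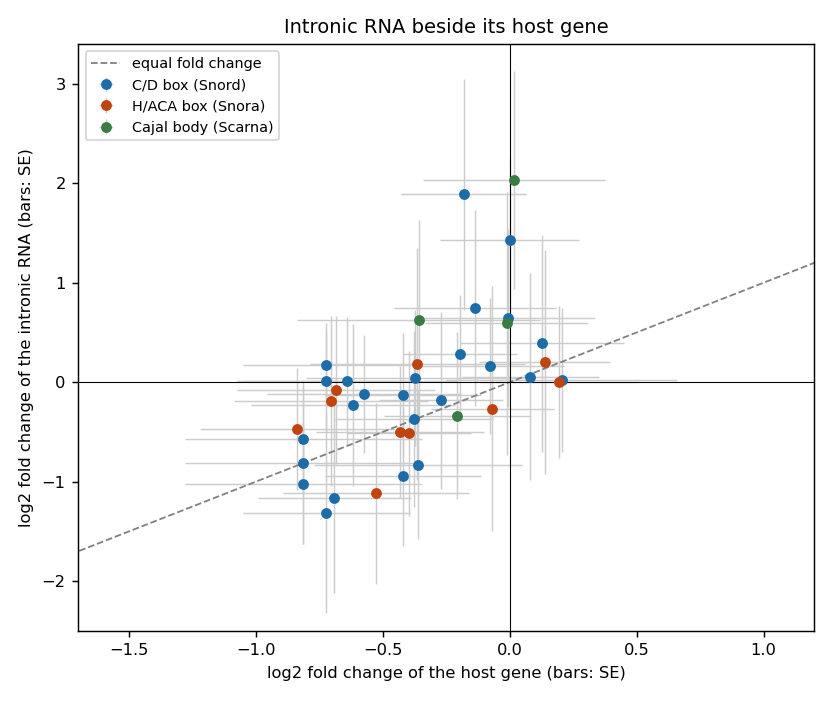
Log2 fold change of each intronic RNA (vertical axis) against that of its host gene (horizontal axis) for 39 members, with standard errors as bars and a dashed line where both are equal. Hosts lie between -0.84 and 0.20, and the 3 members far above the line are Scarna9, Snord59a and Snord17, whose hosts are close to 0.

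The proteins that work with these RNAs were not called either. Of 34 listed symbols of core, assembly, Cajal body and trimming proteins, 32 have a row, 0 passed, and 2 had an unadjusted p under 0.05. Over all genes, 6.58% passed and 16.2% had an unadjusted p under 0.05. All 4 C/D box core proteins were negative, from fibrillarin (Fbl) at -0.56 ± 0.44 to Nop58 at -0.01 ± 0.34, with adjusted p = 0.607 and 0.996 by the authors' deposited table. All 4 H/ACA box core proteins were negative as well, with the pseudouridine synthase Dkc1 at -0.20 ± 0.25 and Nhp2 at -0.99 ± 0.49, adjusted p = 0.783 and 0.281 by the authors' deposited table. These lists had medians of -0.31 and -0.48, where the bin medians at the levels of either list had a median of -0.20. Over all 32 the median was -0.22 beside -0.19 at their level, and after centring in bins of mean count it was -0.02, with 20 of 32 negative.

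Of 12 assembly genes 9 were negative, and 6 after centring, with a median of -0.17 beside -0.19 at their level. They include Pih1d1, a subunit of the R2TP chaperone complex, at -0.93 ± 0.46 (adjusted p = 0.280) by the authors' deposited table. The ATPase Ruvbl1 of the same complex had -0.48 ± 0.35 (adjusted p = 0.565) by the authors' deposited table. Cajal body genes had 5 of 7 negative, with Coil, the scaffold of the body, at -0.24 ± 0.23 and Gemin5, a subunit of the SMN complex, at 0.41 ± 0.22 by the authors' deposited table (adjusted p = 0.694 and 0.363). Among 5 trimming genes 3 were negative, and the lowest adjusted p of these 5 was 0.568.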

How the data were processed

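RNA-seq of 6 samples, 3 Dot1l KO and 3 WT, was used through the authors' gene table. Per the submitters' processing notes, HISAT2 2.1.0, featureCounts 2.0.0, DESeq2 (version not given in the sources used here) and mm10 were used; the sources used here do not give the strand setting, the treatment of multi-mapping reads or the filters. Per the file headers, the deposited mean signal is the average of normalized counts over all libraries, effects are log2 fold changes with an SE, the score is a Wald statistic, and p-values are Wald p with Benjamini-Hochberg adjustment. Recomputing statistic, p and adjustment gave the deposited values, and the adjustment and centring were tested on simulated data. With no value per sample, the planned fits of samples were not run and depth per library is unknown.

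Members, lists and rules were chosen with earlier results of these data known. The rule for named genes took called members and imprinted clusters (none found), by class the 4 smallest p, the 3 highest and 3 lowest fold changes at a mean of at least 50 and the 4 highest means, all Scarna, members of hosts with 3 or more, the hosts of all these, the 4 smallest p of the protein list, and Dot1l. Other genes named were chosen after their values were seen. Positions, hosts and sequences are from GENCODE M21 (GRCm38, the assembly of mm10), where all 45 symbols matched; the host is the same-strand gene spanning the member, and with several the one with the highest mean. Hosts outside the listed symbols were split by biotype. Group levels are implied from mean and fold under equal group sizes. Promoter windows are from RefSeq (GRCm38.p6). Python 3.11.15, pandas 2.3.3 and scipy 1.17.1 were used. Alternatives were an adjusted p under 0.01, an absolute log2 fold change of 1 or more, Bonferroni adjustment, a mean of at least 50, and centring on the median of all genes or within 20 bins of mean count. The values of 1 C/D box member and its host are not reported here singly and enter the counts and medians only.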

Additional observations from a re-analysis of the deposited data

How the results depend on the processing

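No member passed under any alternative run: 0 were called at an adjusted p under 0.01, with a log2 fold change of at least 1, by Bonferroni, at a mean of at least 50 (10 members left, no Scarna), after either centring, or, added after seeing the data, at an unadjusted p under 0.05. The smallest adjusted p among members ranged from 0.304 (centring in bins) to 1 (Bonferroni). Over all genes the count of calls, 1288 as reported, was 767 at an adjusted p under 0.01, 309 by Bonferroni, 737 at a mean of at least 50 and 3163 without adjustment. It was 1200 with an absolute log2 fold change of at least 1. Centring gave 1297 on the median of all genes and 911 in bins. After centring in bins, 2 members had an unadjusted p under 0.05, Snord35a at -1.26 and Snora57 at -1.30, beside 13.7% of all genes. Among the protein genes the unadjusted threshold gave 2 where the adjusted one gave 0. Medians moved with level: for C/D box RNAs -0.05 became -0.54 at a mean of at least 50 and -0.48 after centring in bins, for H/ACA box RNAs -0.30 became -0.47 and -0.66, and for Scarna 0.59 became -0.05 after centring in bins. Leaving out members that overlap an exon of another gene gave -0.27 for H/ACA box RNAs (without Snora34). Centring in bins raised the number of negative members from 26 to 39, and the signs of positive values up to the 0.59 of Scarna8 turned. Among the genes named by rule it gave Scarna8 -0.0504, Snord49a -0.0552, Snord49b -0.36, Atp5b 0.0155, Haus6 0.17 and Snx5 0.20, and centring on the median of all genes gave Haus6 0.0068 and Snx5 0.0181, with 0 of them called. No paired analysis was possible because the table holds no values per sample; leaving out replicates, a replicate block and other count tools were not run for the same reason.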

Other observations

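The maternally expressed RNA Rian, on chromosome 12, hosts a large cluster of C/D box RNAs between Meg3 and Mirg. None of the 45 members lies in it, but 4 genes typed as snoRNA under other symbols do, and they were looked at after their values were seen. Rian fell by 1.98 ± 0.26 (adjusted p = 1.84e-11) and Meg3 by 2.07 ± 0.30 (adjusted p = 2.00e-09) by the authors' deposited table. The snoRNA genes inside Rian, DQ267102, Gm24564, Gm23600 and Gm25357, had -2.20 ± 1.26, -1.64 ± 1.65, -1.56 ± 1.28 and -1.25 ± 1.66 by the authors' deposited table, with means of 4.79 to 9.56 and adjusted p from 0.396 to 0.804. All 4 were negative and 0 passed, whereas 30 of the 71 other such genes elsewhere were negative, with a median of 0.09. After centring in bins of mean count, 50 of the 71 were negative with a median of -0.32, and all 4 in Rian with a median of -2.13.

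Near Scarna9, the snoRNA gene Gm24339 lies 130 bases away in the same Cep295 region and on the same strand, and the pair spans 276 bases. Gm24339 had 2.22 ± 0.97 (adjusted p = 0.188) by the authors' deposited table, beside 2.03 ± 1.10 for Scarna9, and neither passed. The annotation lists them as separate genes, and whether they are pieces of 1 longer RNA was not tested. The highest fold change among the 75 other snoRNA or scaRNA genes belonged to Rnu3b3, a copy of the U3 RNA of ribosomal RNA processing, at 3.41 ± 1.37 with a mean of 6.10 and adjusted p = 0.131 by the authors' deposited table.

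Long non-coding RNAs named as snoRNA hosts, the Snhg genes and Gas5, all had negative fold changes, 13 of 13 in the table, with a median of -0.36. None passed, against 6.58% of all genes, while 3 had an unadjusted p under 0.05, against 16.2% of all genes. The lowest adjusted p was 0.0608 for Snhg20 at -0.99 ± 0.35, and Snhg15 had -1.15 ± 0.43 with adjusted p = 0.0891, by the authors' deposited table. Genes of their level had a median of -0.16, and after centring in bins of mean count 11 of the 13 RNAs were negative.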
